A study of Danio rerio with 16 samples.

Results

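Zebrafish embryos labelled as Gata6 morphants were set against WT embryos at bud, the end of gastrulation, just before the first somites form. The comparison rested on 2 Gata6 morphant and 2 WT libraries, which are 4 of the 16 libraries of the series and were chosen by their labels alone. Each library was made from polyA RNA of a pool of 40 whole embryos. Morphants are embryos that received a morpholino, a synthetic antisense oligomer that stops translation or splicing of an mRNA. The labels give neither the morpholino's type or dose, nor the clutches, nor whether WT embryos were injected with a control, and protein was not measured. Gata6 mRNA is not analysed here, so the comparison holds no check of the knockdown. Nothing in the labels says whether the pools of a group came from separate crosses, so p-values measure only the spread between these pools. The other libraries used were Gata5 morphants and Gata5/6 morphants, which carried both morpholinos, at bud, and WT and Gata6 morphants at 6-somites, with 2 libraries in each group.

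Gata6 is a zinc finger transcription factor that binds GATA motifs and is expressed in endoderm, cardiac precursors and the yolk syncytial layer, the nucleated layer that passes yolk lipid to the zebrafish embryo. Together with Gata5 it is known for specifying heart progenitors, and the title of the study asks how GATA factors act there through Tmem88a and canonical WNT signalling. Injected morpholinos are also known to induce genes of the damage and cell death response in zebrafish, so these genes were described beside the tissue lists.

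Expression was given as RPKM, the reads of a gene per kilobase, scaled to the depth of the library, and changes are on the log2(RPKM + 1) scale, which understates the ratio of weakly expressed genes. A gene was tested when it reached 1 RPKM in at least 2 of the 8 bud libraries, and 13485 genes did. It was called when its adjusted p in limma was below 0.05, with libraries weighted by stage because the spread within groups was larger at bud. Depth was 30.8 and 27.2 M reads in WT libraries 1 and 2 and 29.7 and 26.5 M reads in Gata6 libraries 1 and 2. The error given with a log2 change is limma's standard error (SE).

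The libraries of a group differed before any comparison was made. The difference between libraries 1 and 2 had an SD over genes of 0.49 on the log2 scale in Gata6 morphants and 0.44 in WT at bud, against 0.179 to 0.222 in the 4 groups at 6-somites. The 7 vitellogenin genes, which encode yolk proteins made in the adult female liver, summed to 0.0908 to 0.287 RPKM in the 4 bud libraries numbered 1. In the libraries numbered 2 they summed to 1169 RPKM in WT, 180.6 RPKM in Gata6 morphants, 259.9 RPKM in Gata5 morphants and 842.8 RPKM in Gata5/6 morphants. Of 20 liver markers chosen after values were seen, 18 were higher in all 4 bud libraries numbered 2 than in all 4 numbered 1, and none was called in Gata6 morphants against WT. The 13 mitochondrially encoded mRNAs separated 1 library from the rest. They summed to 6010 RPKM in Gata6 library 2, the lowest of the 8 bud libraries for all 13 genes, to 19250 RPKM in Gata6 library 1 and to 19190 and 24230 RPKM in WT. The part of these differences in the results below was not tested, and each group is therefore given library by library.

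**Figure D1:**
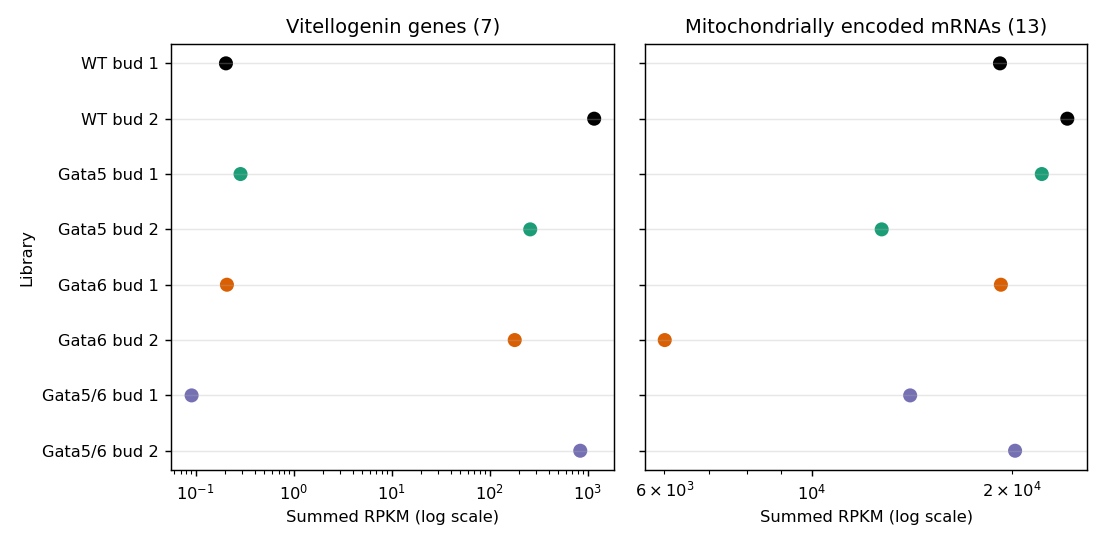
Summed RPKM on log axes of 7 vitellogenin genes (left) and 13 mitochondrially encoded mRNAs (right) in each of the 8 bud libraries, 1 point per library. Vitellogenins stay at or below 0.287 RPKM in libraries numbered 1 and reach at least 180.6 RPKM in those numbered 2, and mitochondrial mRNAs are lowest in Gata6 library 2 at 6010 RPKM.

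Few genes separated Gata6 morphants from WT at bud beyond the spread between libraries. In limma, 16 of 13485 genes were called (0.119%), of which 7 were higher (0.0519%) and 9 lower (0.0667%) in Gata6 morphants. At an unadjusted p below 0.05 there were 1384 genes (10.3%), 650 higher (4.82%) and 734 lower (5.44%). Both Gata6 libraries lay outside the range of both WT libraries for 5174 genes (38.4%), above it for 2510 (18.6%) and below it for 2664 (19.8%). All 16 called genes were among these. The calls rest on the spread shared with the 6-somites libraries. In simulated data where each gene's spread was free to differ between stages, false calls clearly exceeded the threshold. The adjusted p given here may therefore be too small. Fitted on the 8 bud libraries alone, limma called 0 genes, with 1255 at an unadjusted p below 0.05, and on the 4 libraries alone it called 0, with 822. Without WT library 2 there was 1 call, scpep1, and without WT library 1 there were 6, of which 2 were among the 16, whereas without Gata6 library 1 there were 465 and without Gata6 library 2 there were 50. With the replicate number as a block, 28 genes were called, 15 of them among the 16.

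The lower genes were led by scpep1 and rexo2. scpep1, which encodes a serine carboxypeptidase, was at 79.6 and 71.6 RPKM in WT and at 13.4 and 19.2 RPKM in Gata6 libraries 1 and 2. The groups lay far apart, with means of 75.6 ± 5.69 and 16.3 ± 4.13 RPKM (SD, n = 2 libraries each). Its log2 change was -2.17 ± 0.20 with an adjusted p of 0.0017, and it was the 1 gene still called with any of the 4 libraries left out, at adjusted p from 0.0012 to 0.048. In whole embryos, fewer cells that express a gene and less RNA per cell cannot be told apart. rexo2, which encodes an oligoribonuclease known from mitochondria in mammals, was at 23.7 and 25.1 RPKM in WT and at 1.51 and 3.48 RPKM in Gata6 morphants. Its WT mean was 9.77 times the Gata6 mean, and its log2 change of -2.92 ± 0.38 was the lowest of the 16, with an adjusted p of 0.0084.

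The other lower genes stood between 2.04 and 5.29 times higher in WT. ginm1, which encodes a glycosylated membrane protein, was at 8.59 and 9.09 RPKM in WT and at 1.44 and 2.14 RPKM in Gata6 morphants (log2 change -1.83 ± 0.26, adjusted p = 0.0147). stard3, whose product binds cholesterol in the membrane of late endosomes, was at 26.3 and 25.3 RPKM in WT and at 8.40 and 8.14 RPKM in Gata6 morphants (log2 change -1.53 ± 0.20, adjusted p = 0.0084). mtmr6, a phosphoinositide phosphatase of the myotubularin family, was at 6.57 and 5.77 RPKM against 1.63 and 1.57 RPKM (log2 change -1.46 ± 0.18, adjusted p = 0.0051). For stard3 and mtmr6 the libraries of a group lay close together, while the Gata6 libraries of ginm1 lay further apart. mea1 was at 7.10 and 7.07 RPKM in WT and at 1.79 and 2.79 RPKM in Gata6 morphants, with an adjusted p of 0.029. ENSDARG00000073805, which carries no symbol here, was at 5.19 and 4.46 RPKM in WT and at 0.959 and 0.867 RPKM in Gata6 morphants, with an adjusted p of 0.0051. The smallest changes among lower genes were those of hes3, a basic helix-loop-helix repressor of the Hairy/Enhancer of split family, and cercam, a glycosyltransferase-like gene. hes3 was at 28.8 and 32.1 RPKM in WT and at 16.6 and 11.4 RPKM in Gata6 morphants, with an adjusted p of 0.033. cercam was at 23.5 and 25.6 RPKM in WT and at 11.6 and 12.5 RPKM in Gata6 morphants, with an adjusted p of 0.046.

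Among the higher genes were 4 regulators or markers of embryonic tissues. cdh17, a cadherin that marks the zebrafish pronephric duct and tubules, was at 0.598 and 0.818 RPKM in WT and at 6.67 and 4.97 RPKM in Gata6 morphants. Its Gata6 mean was 8.22 times the WT mean, and its log2 change was 1.99 ± 0.24 with an adjusted p of 0.0051. tal1, a basic helix-loop-helix factor of blood and endothelial progenitors, was at 0.196 and 0.460 RPKM in WT and at 2.66 and 2.34 RPKM in Gata6 morphants (log2 change 1.40 ± 0.17, adjusted p = 0.0051). These levels correspond to 16 and 33 reads in WT and 209 and 164 reads in Gata6 morphants. en2, an Engrailed homeobox gene of the midbrain-hindbrain boundary whose gene copy is not told apart by the symbol used here, was at 0.267 and 0.404 RPKM in WT and at 2.90 and 2.75 RPKM in Gata6 morphants (log2 change 1.52 ± 0.17, adjusted p = 0.0051). sox10, an early factor of neural crest, was at 1.28 and 0.564 RPKM in WT and at 4.63 and 3.26 RPKM in Gata6 morphants (log2 change 1.37 ± 0.20, adjusted p = 0.0168). For all 4 genes the lower of the Gata6 libraries stood above the higher of the WT libraries. tal1, en2 and sox10 reached 1 RPKM in 2 bud libraries only with the help of the Gata6 libraries, and with no filter all 3 were still called.

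Of the 3 remaining higher genes, vmo1a differed most between the Gata6 libraries. vmo1a, named after a protein of the vitelline membrane outer layer, was at 0.439 and 1.06 RPKM in WT and at 6.58 and 3.20 RPKM in Gata6 libraries 1 and 2 (log2 change 1.71 ± 0.28, adjusted p = 0.046). The call ended with the replicate block (adjusted p = 0.080), with a pseudocount of 0.1 (0.075), with no filter (0.084) and with limma-voom (0.082). It also ended without either WT library, with the bud libraries alone and with the WT and Gata6 libraries alone. zgc:174904 was at 3.32 and 2.53 RPKM in WT and at 10.9 and 8.38 RPKM in Gata6 morphants, with an adjusted p of 0.0147. ENSDARG00000035831, without a symbol here, was at 23.8 and 21.9 RPKM in WT and at 84.9 and 69.9 RPKM in Gata6 morphants, with an adjusted p of 0.0051. It was the most strongly expressed of the 7 higher genes.

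**Figure D2:**
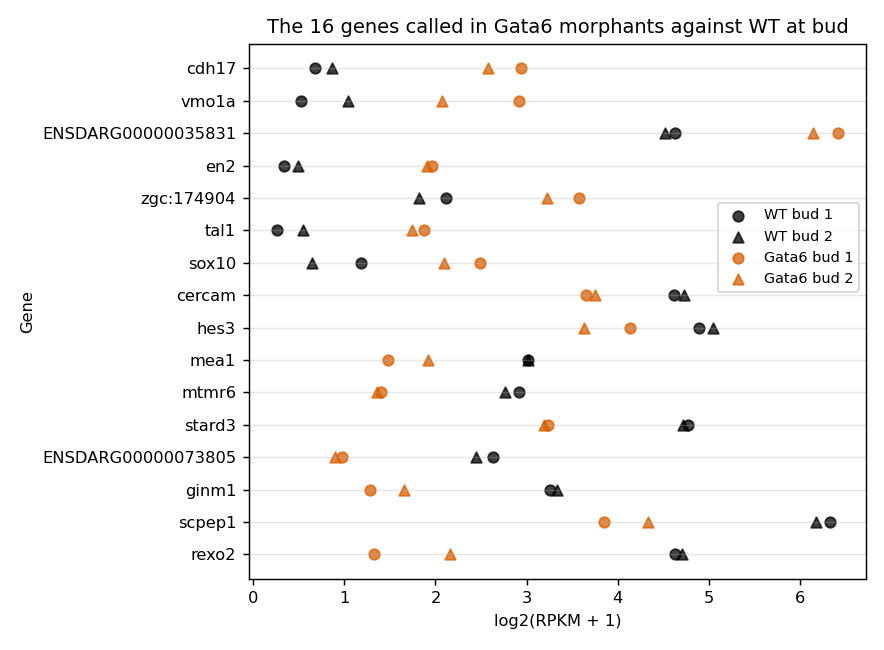
Levels on the log2(RPKM + 1) scale of the 16 genes called in Gata6 morphants (orange) against WT (black) at bud, with circles for libraries 1 and triangles for libraries 2. Both Gata6 libraries lie on one side of both WT libraries for all 16 genes, 7 above and 9 below.

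tmem88a, named in the study's title, and the related tmem88b and gata5 did not pass the test at bud. tmem88a was at 4.31 and 3.02 RPKM in WT and at 6.19 and 2.12 RPKM in Gata6 morphants, so the WT values lay inside the range of the Gata6 values, with a log2 change of 0.04 ± 0.32 and an adjusted p of 0.98. tmem88b was at 2.116 and 2.099 RPKM in WT and at 2.09 and 3.35 RPKM in Gata6 morphants, with an adjusted p of 0.679. gata5, a GATA factor close to Gata6, was at 46.3 and 52.9 RPKM in WT and at 59.0 and 58.6 RPKM in Gata6 morphants. Its groups did not overlap, and its log2 change of 0.25 ± 0.18 had an adjusted p of 0.672. At 6-somites gata5 was called higher in Gata6 morphants, by 0.59 ± 0.08 on the log2 scale with an adjusted p of 0.0020. tmem88b was called lower at that stage, with a log2 change of -0.31 ± 0.08 and an adjusted p of 0.042. tmem88a was not called there (adjusted p = 0.593).

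The Gata6 morpholino was also added to Gata5 morphants at bud, and Gata6 morphants were sampled again at 6-somites. Neither comparison shares a library with Gata6 morphants against WT at bud, although all came from the same fit. With Gata5/6 set against Gata5 morphants at bud, 18 genes passed limma's threshold (0.133%), of which 3 were higher (0.0222%) and 15 lower (0.111%). In Gata6 morphants against WT at 6-somites it called 1047 (7.77%), 540 higher (4.01%) and 507 lower (3.76%). The replicate block moved these counts to 7 and 1849, and in the fit on bud libraries alone limma called 0 genes in the Gata5 morphant background, with 774 at an unadjusted p below 0.05.

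All 9 lower genes had a log2 change of the same sign in both other comparisons and were called lower at 6-somites. hes3 changed little in the Gata5 morphant background, with a log2 change of -0.09 ± 0.17. There it was at 27.5 and 27.2 RPKM in Gata5 morphants and at 24.4 and 27.1 RPKM in Gata5/6 morphants. Of the 16 genes, 14 (87.5%) had the same sign in the Gata5 morphant background, against 55.4% of all tested genes, and 13 (81.2%) at 6-somites, against 57.0%. Calls in the same direction were made for 4 genes in the Gata5 morphant background and for 13 at 6-somites. The 4 genes called the same way in all 3 comparisons were scpep1, cdh17, ENSDARG00000073805 and ENSDARG00000035831. scpep1 was at 61.8 and 69.8 RPKM in Gata5 morphants and at 22.2 and 27.1 RPKM in Gata5/6 morphants, and at 6-somites it was at 41.0 and 44.8 RPKM in WT and at 17.4 and 18.6 RPKM in Gata6 morphants. Its log2 change was -1.38 ± 0.20 with the Gata5 morpholino and -1.21 ± 0.09 at 6-somites. cdh17 was at 0.61 RPKM in both Gata5 libraries and at 12.1 and 6.64 RPKM in Gata5/6 morphants, a log2 change of 2.64 ± 0.24. At 6-somites cdh17 was at 2.81 and 2.38 RPKM in WT and at 8.15 and 7.90 RPKM in Gata6 morphants, a log2 change of 1.33 ± 0.11. ENSDARG00000035831 reached 98.0 and 72.0 RPKM in Gata5/6 morphants, and its 6-somites levels of 57.4 and 56.1 RPKM in Gata6 morphants stood against 7.23 and 8.42 RPKM in WT.

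The wider set of 1384 genes with an unadjusted p below 0.05 at bud held the same sign for 992 (71.7%) in the Gata5 morphant background and for 1076 (77.7%) at 6-somites. At 6-somites 352 of them were called in the same direction and 20 in the opposite one, against 849 and 198 of all 13482 genes. No gene was called for a difference between the effect of the Gata6 morpholino with and without the Gata5 morpholino (0.0%) in limma, with 625 genes (4.63%) at an unadjusted p below 0.05 and 4 calls by limma-voom on recovered reads. The lowest adjusted p in that test were those of tal1 and en2, both 0.054. Both passed the filter only with the help of the Gata6 libraries, whose values that test also uses, so their rank is no result. tal1 was at 0.352 and 0.638 RPKM in Gata5 morphants and at 0.135 and 0.042 RPKM in Gata5/6 morphants, and en2 at 0.196 and 0.423 against 0.084 and 0.161 RPKM.

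**Figure D3:**
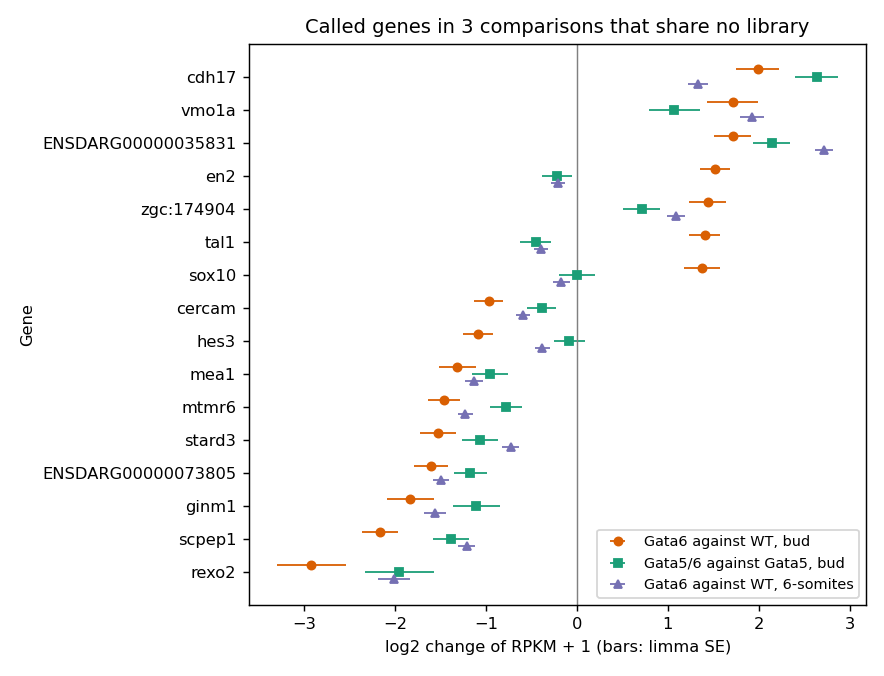
Log2 change with its limma SE of the 16 genes called at bud in 3 comparisons that share no library, Gata6 against WT at bud (circles), Gata5/6 against Gata5 at bud (squares) and Gata6 against WT at 6-somites (triangles). The 9 lower genes stay below 0 in all 3, with hes3 at only -0.09 ± 0.17 in Gata5/6 against Gata5. en2 and tal1 lie below 0 in both of the others, and sox10 lies at 0.00 and -0.17.

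In the main fit limma called tal1, en2 and sox10 for a difference of the Gata6 effect between stages. These 3 genes passed the filter only with the help of the Gata6 libraries at bud, where they are high. The test of that difference uses the same values, so these 3 calls are no result. Limma called 6 identifiers for that difference (0.0445%), all 6 with a lower Gata6 effect at 6-somites than at bud. Of these, lmo2 and ENSDARG00000091986 had the same read numbers in each WT and Gata6 library at bud. With no filter limma called 3, of which 2 were among the 6, and limma-voom called 2, of which 1 was among the 6. Leaving out WT bud library 1 or 2 left 0 and 1 calls, and leaving out Gata6 bud library 1 gave 223. At 6-somites tal1 was at 17.9 and 17.2 RPKM in WT and at 12.6 and 13.7 RPKM in Gata6 morphants, called lower with a log2 change of -0.39 ± 0.08 and an adjusted p of 0.0120. en2 was at 17.3 and 15.7 RPKM in WT and at 14.4 and 13.9 RPKM in Gata6 morphants at that stage, and sox10 at 17.5 and 15.96 against 14.6 and 14.8 RPKM, with neither called. For each of these genes, both Gata6 libraries at bud lay above both WT libraries and far below the levels at 6-somites. lmo2, a partner of tal1 in blood progenitors, was at 1.89 and 2.22 RPKM in WT and at 4.27 and 5.98 RPKM in Gata6 morphants at bud, where its log2 change of 0.99 had an adjusted p of 0.092, and it was called lower at 6-somites.

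tal1, en2 and sox10 also belong to the genes that were called at least 2 log2 units higher at 6-somites than at bud in Gata5 morphants. Of 74 such genes tested here, 17 reached 1 RPKM in 2 bud libraries only with the help of the Gata6 libraries, tal1, en2 and sox10 among them, so these could enter only by being high in Gata6 morphants. Their direction is therefore no result over the 74. The set was drawn again without that filter, a choice made after the data were seen, and it then held 98 of 25530 genes listed at both stages. That choice used the Gata5 levels, with the spread of each gene estimated over all 16 libraries. lmo2 and ENSDARG00000091986, which may share reads, are both counted among the 98. Over these 98 genes the median log2 difference between Gata6 morphants and WT at bud was 0.59, and over all 25530 it was 0.00. Gata6 libraries 1 and 2 both stood at a median of 0.57 above the WT mean. Within libraries numbered 1 the median Gata6 minus WT difference was 0.49, with 87 of 98 genes higher, against 15227 of the 25530. Within libraries numbered 2 it was 0.66, with 95 of 98 higher, against 13023 of the 25530. Of the 98, 71 reached 1 RPKM in 2 bud libraries. Both Gata6 libraries were above both WT libraries for 67 of the 98 (68.4%), against 19.8% of the 25530. At an unadjusted p below 0.05, 53 were higher and 0 lower, against 4.5% and 4.7% of the 25530. Called without the filter were 3 higher, tal1, en2 and sox10, and 0 lower, against 6 higher and 9 lower of the 25530. For Gata5/6 morphants, which also carried the Gata6 morpholino, only median levels over the 74 filtered genes are given. There the median log2(RPKM + 1) was 1.07 and 1.24 in Gata5/6 libraries 1 and 2, and 1.52 and 1.25 in WT libraries 1 and 2. Because 17 of the 74 passed the filter only with the help of the Gata6 libraries, these levels are no contrast between Gata5/6 and Gata6 morphants. etsrp, an ETS factor of endothelial progenitors that is higher at 6-somites, was at 2.99 and 1.01 RPKM in WT and at 10.7 and 5.22 RPKM in Gata6 morphants (adjusted p = 0.085). actc1, an actin of striated muscle, was at 3.16 and 4.03 RPKM in WT and at 11.7 and 9.40 RPKM in Gata6 morphants (adjusted p = 0.097).

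The same 98 genes at 6-somites had a median log2 difference of -0.39 between Gata6 morphants and WT, with 2 called higher (2.0%) and 22 lower (22.4%), against 1.3% and 1.8% of the 25530. The 24 genes that were at least 2 log2 units lower at 6-somites than at bud in Gata5 morphants had a median Gata6 minus WT difference of -0.36 at bud. None of the 24 was called, where 6 higher and 9 lower of the 25530 were called, so that count is no result about these genes. Within libraries numbered 1 that median was -0.42, with 5 of 24 genes higher, and within libraries numbered 2 it was -0.24, with 9 higher. Against the WT mean the Gata6 libraries lay on opposite sides, at medians of -0.61 in library 1 and 0.12 in library 2. Embryos were staged by label alone here, and the part of small differences in age between pools was not tested.

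**Figure D4:**
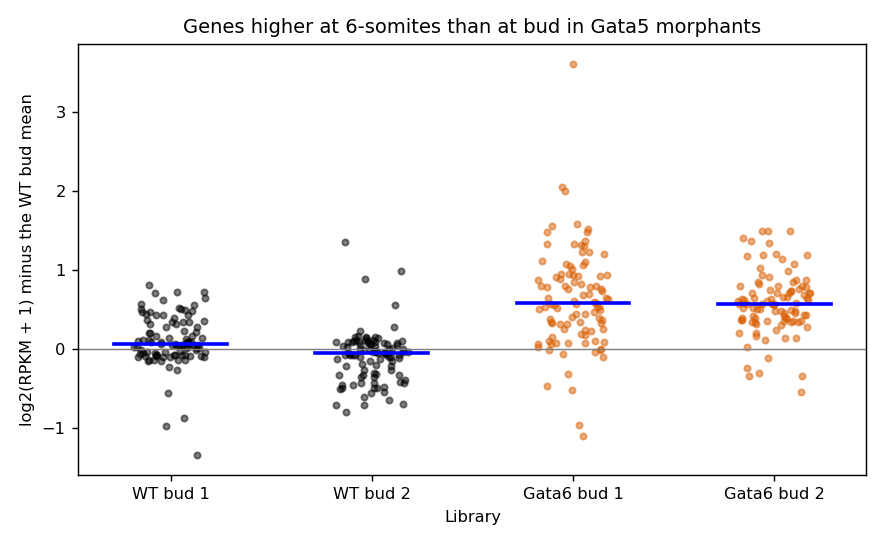
Level of each of 98 genes on the log2(RPKM + 1) scale minus its WT mean at bud, in the 2 WT and 2 Gata6 libraries, with 1 point per gene and blue lines for medians. The genes were chosen as higher at 6-somites than at bud in Gata5 morphants with no filter on low values, and the medians of Gata6 libraries 1 and 2 both lie at 0.57.

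Genes of the damage response, which drives cell cycle arrest and cell death, held no call among 20 tested members at bud, where 0.119% of all genes were called. At an unadjusted p below 0.05, 10 were higher and 0 lower, against 4.82% and 5.44% of all genes. The Gata6 libraries differed over this list, with a median log2 difference from the WT mean of 0.77 in library 1 and 0.25 in library 2. mdm2, a ubiquitin ligase induced by DNA damage, was at 3.32 and 2.41 RPKM in WT, at 16.1 RPKM in Gata6 library 1 and at 5.18 RPKM in Gata6 library 2. phlda3, which encodes an inhibitor of Akt signalling, was at 2.25 and 2.53 RPKM in WT and at 26.7 and 5.23 RPKM in Gata6 libraries 1 and 2. casp8, a caspase of the death receptor pathway, was at 1.57 and 1.02 RPKM in WT and at 14.1 and 4.01 RPKM. In all 3 genes Gata6 library 2 stood between WT and Gata6 library 1. cdkn1a, the cell cycle inhibitor p21, showed the same order at 1.51 and 0.712 RPKM in WT and 8.79 and 2.58 RPKM in Gata6 morphants. ccng1, cyclin G1, was less uneven, at 77.0 and 95.6 RPKM in WT and 266 and 189 RPKM in Gata6 morphants.

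The adjusted p of these 5 genes at bud ran from 0.170 for ccng1 to 0.352 for cdkn1a. At 6-somites 9 of the 20 members were called higher and 1, btg2, lower, against 4.01% and 3.76% of all genes, with a median log2 change of 0.48, and the 5 genes just given were among the 9. There mdm2 was at 3.62 and 3.37 RPKM in WT and at 8.56 and 6.44 RPKM in Gata6 morphants, and phlda3 at 2.38 and 2.29 against 10.1 and 8.09 RPKM. In Gata5/6 against Gata5 morphants at bud none of the 20 was called, where 0.133% of all genes were called, and the median log2 change was 0.30. At an unadjusted p below 0.05 in limma, 0 of the 20 were higher and 2 lower there, beside 816 of all 13485 genes in either direction. Gata5/6 library 1 stood above library 2 for mdm2, at 8.31 and 3.23 RPKM against 2.72 and 3.57 RPKM in Gata5 morphants. For mdm2, the library numbered 1 was the higher of its pair at bud in WT, Gata6 and Gata5/6 morphants, and the lower in Gata5 morphants.

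**Figure D5:**
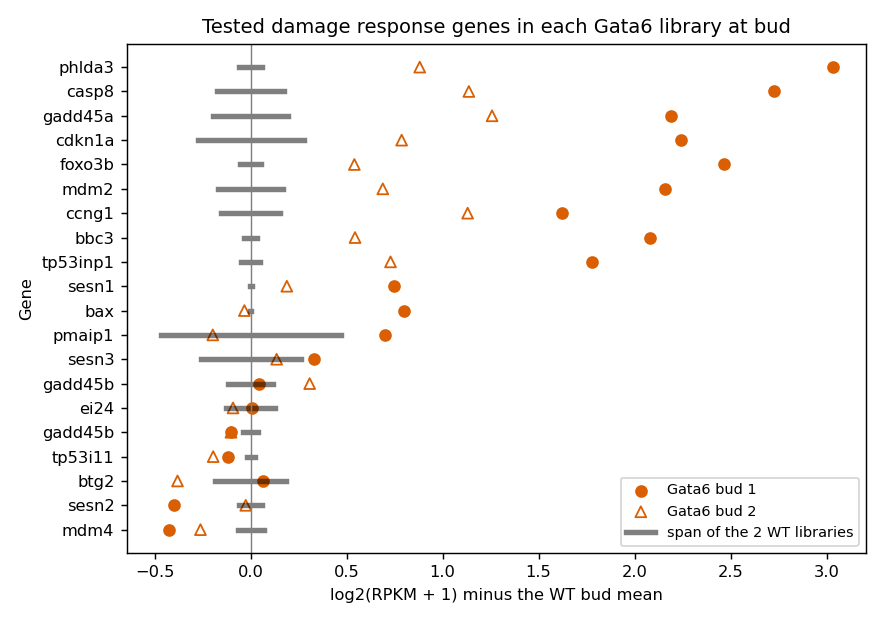
Log2(RPKM + 1) minus the WT mean of 20 tested identifiers of the damage response list in Gata6 library 1 (filled circles) and library 2 (open triangles), with grey bars for the span of the 2 WT libraries. Medians are 0.77 in library 1 and 0.25 in library 2, and 2 identifiers share the name gadd45b.

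Genes of DNA replication and the cell cycle included several with lower values in both Gata6 libraries and no call, where 0.119% of all genes were called. Of 37 tested members 0 were called, 1 was higher and 6 were lower at an unadjusted p below 0.05, against 4.82% and 5.44% of all genes, and the median log2 change was -0.19. Both Gata6 libraries were below both WT libraries for 16 of the 37, against 19.8% of all genes. pcna, the sliding clamp of replication forks, was at 618 and 562 RPKM in WT and at 282 and 395 RPKM in Gata6 morphants, with an adjusted p of 0.177 at bud. rrm1, the large subunit of ribonucleotide reductase, was at 63.9 and 67.9 RPKM in WT and at 31.3 and 38.1 RPKM in Gata6 morphants, with an adjusted p of 0.112. Both were called lower at 6-somites, where 5 of the 37 were called lower and 0 higher, against 3.76% and 4.01% of all genes.

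The heart progenitor list, which the study's question concerns, held no member that passed the test at bud. None of its 14 tested members was called or had an unadjusted p below 0.05, and the median log2 change was 0.13. Of all tested genes 0.119% were called and 10.3% had an unadjusted p below 0.05. With 14 genes, a count of 0 lies near these shares and is no result about the list. Members that were not tested included nkx2.5, which had no identifier. They also included tbx20, tbx5a, mef2c, myl7, tnnt2a, vmhc, smarcd3b and tcf21, which were below the filter or not listed. hand2, a basic helix-loop-helix factor needed for the heart field, was at 14.4 and 10.4 RPKM in WT and at 19.5 and 8.95 RPKM in Gata6 libraries 1 and 2. nkx2.7, an NK homeobox gene of heart precursors, was at 15.5 and 9.11 RPKM in WT and at 19.0 and 13.01 RPKM in Gata6 morphants. The groups overlapped for both genes.

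Among the other mesodermal lists, tal1 was the 1 call among 12 blood and vascular genes, where 0.119% of all genes were called. tal1 passed the filter only with the help of the Gata6 libraries, so its direction is no result about the list. At an unadjusted p below 0.05 the list held 4 higher genes, tal1 among them, and 1 lower gene, against 4.82% and 5.44% of all genes. cdh17 was the 1 call among 8 kidney genes, and the median of that list was 0.07. Of 29 somite genes 0 were called, 3 were higher and 3 lower at an unadjusted p below 0.05. her1, an oscillating gene of the segmentation clock, was at 22.1 and 24.9 RPKM in WT and at 12.9 and 11.0 RPKM in Gata6 morphants, with an adjusted p of 0.077. Of 15 notochord genes 0 were called, with 4 in each direction at an unadjusted p below 0.05. noto, the notochord homeobox gene also listed with Nodal, was at 25.8 and 34.1 RPKM in WT and at 17.2 and 14.2 RPKM in Gata6 morphants, with an adjusted p of 0.209.

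In the ectoderm, en2 was the 1 call among 35 neural plate genes, where 0.119% of all genes were called. At an unadjusted p below 0.05, 4 were higher, en2 among them, and 11 lower, against 4.82% and 5.44% of all genes. The median log2 change was -0.24. Gata6 library 2 stood lower than library 1 over this list, at medians of -0.38 and -0.18. gbx1, a homeobox gene of the hindbrain, was at 15.7 and 17.9 RPKM in WT and at 6.83 and 11.1 RPKM in Gata6 morphants, with an adjusted p of 0.115. sox10 was the 1 call among 15 neural crest genes, with 2 in each direction at an unadjusted p below 0.05. Both en2 and sox10 passed the filter only with the help of the Gata6 libraries, so their direction is no result about these lists. None of 23 enveloping layer genes and none of 6 hatching gland genes was called, with medians of -0.01 and 0.11.

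Lipid handling genes of the yolk syncytial layer included cd36 just beyond the threshold. cd36, a fatty acid receptor and transporter, was at 6.70 and 3.94 RPKM in WT and at 0.591 and 0.623 RPKM in Gata6 morphants. Both Gata6 libraries were far below both WT libraries, and its log2 change of -1.94 had an adjusted p of 0.050, above the threshold before rounding. It was called lower in Gata5/6 against Gata5 morphants, at 0.49 and 0.24 against 4.57 and 6.67 RPKM, and at 6-somites, at 0.85 and 0.86 against 3.35 and 4.70 RPKM. soat1, which esterifies cholesterol, was at 3.35 and 3.64 RPKM in WT and at 1.89 and 0.935 RPKM in Gata6 morphants at bud, with an adjusted p of 0.146, and was called lower in both other comparisons. Of the 22 tested members 0 were called at bud, against 0.119% of all genes, and the median was 0.10. At an unadjusted p below 0.05, 1 was higher and 3 were lower, against 4.82% and 5.44% of all genes. Both Gata6 libraries were above both WT libraries for 9 of the 22 and below them for 5, against 18.6% and 19.8% of all genes. The lower values of cd36 and soat1 therefore do not stand for the list in Gata6 morphants against WT at bud. In Gata5/6 against Gata5 morphants at bud, 0 of the 22 were called higher and 4 lower, against 0.0222% and 0.111% of all genes. At an unadjusted p below 0.05 in limma, 3 were higher and 5 lower there, and the median log2 change was -0.21. At 6-somites 6 were called higher and 3 lower, against 4.01% and 3.76% of all genes. None of 11 tested endoderm genes was called at bud. At an unadjusted p below 0.05, 0 were higher and 2 lower, beside the same shares of all genes. Over these 11 genes Gata6 libraries 1 and 2 stood at medians of -0.03 and -0.40. The endoderm regulators sox17, sox32 and foxa had no identifier and were not tested.

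Signalling lists held no call at bud, where 0.119% of all genes were called. Beside the counts below, 4.82% of all genes were higher and 5.44% lower at an unadjusted p below 0.05. Of 22 canonical WNT genes 2 were higher and 6 lower at that level, and the median was -0.40 in Gata6 library 1 and -0.02 in library 2. cdx4, a caudal homeobox gene downstream of WNT, was at 148 and 169 RPKM in WT and at 119 and 78.6 RPKM in Gata6 morphants, with an adjusted p of 0.214. lef1, a nuclear effector and target of WNT, was at 9.75 and 12.8 RPKM in WT and at 7.55 and 7.33 RPKM in Gata6 morphants, with an adjusted p of 0.348. At an unadjusted p below 0.05 there were 0 higher and 1 lower of 22 BMP genes, 0 and 2 of 10 Nodal genes, 0 and 2 of 15 FGF genes, and 1 and 0 of 16 retinoic acid genes. The 31 hox genes had medians of 0.23 in Gata6 library 1 and -0.26 in library 2, and at an unadjusted p below 0.05 they held 2 higher and 3 lower. Of 8 germ cell genes and of 4 interferon genes 1 each was higher at that level, the interferon gene being isg15 at 0.479 and 0.932 RPKM in WT and 8.81 and 2.23 RPKM in Gata6 libraries 1 and 2.

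The Gata6 libraries differed from each other by at least 1 log2 unit for 594 of the tested genes (4.40%), 346 higher in library 1 and 248 higher in library 2, against 369 (2.74%) between the WT libraries. The 6 highest and 6 lowest differences among genes with a symbol, given without a test, included vitellogenin, liver and mitochondrial genes. vtg1, vtg2, vtg4, vtg5 and fabp10a, a liver fatty acid binding protein, were higher in library 2, and mt-atp6 and mt-nd2 were higher in library 1. mt-atp6 was at 2868 RPKM in Gata6 library 1, at 577 RPKM in Gata6 library 2 and at 2625 and 3323 RPKM in WT. rad21a, a cohesin subunit, was at 1.03 and 28.9 RPKM in Gata6 libraries 1 and 2 and at 0.353 and 0.210 RPKM in WT. Over the other bud libraries rad21a was at 18.001 RPKM in Gata5 library 2, at 18.7 RPKM in Gata5/6 library 1 and at 0.13 and 0.11 RPKM in their partners, so it followed neither the groups nor the library numbers. si:ch211-114n24.6 was at 37.9 and 0.747 RPKM in Gata6 libraries 1 and 2 and at 32.2 and 0.599 RPKM in WT libraries 1 and 2. At bud it was at 39.3 and 0.651 RPKM in Gata5/6 libraries 1 and 2, but at 0.911 and 0.720 RPKM in Gata5 libraries 1 and 2. In Gata5/6 morphants at 6-somites it was at 30.8 and 38.9 RPKM, so it did not follow the library number in every group. si:ch211-217k17.9, si:ch211-217k17.8 and si:dkey-126g1.9 were the other genes highest in library 1, and none of these 12 genes was called.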

How the data were processed

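The members and gene lists were chosen with earlier results of these data known. PolyA RNA of whole zebrafish embryos was sequenced as single 36-base reads, per the labels. The deposited values are RPKM per gene, computed by the authors with build Zv9 per the submitters' processing notes, and for the aligner, annotation and counter the tool is not given in the sources used. The smallest recovered read number was 1 and no value is 0, so genes with 0 reads in a library of a stage appear to be left out.

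Values were taken as log2(RPKM + 1). limma 3.58.1 (R 4.3.3, trend) was fitted to 16 libraries with 8 group means and array weights by stage, 0.472 at bud and 2.117 at 6-somites, since earlier results had shown the bud libraries to differ more. Tests were two-sided, adjusted by Benjamini-Hochberg over all genes of a comparison. With 1 library left out of a group, the lone library was assumed to vary like the others. The test was checked on simulated data, where false calls stayed near the threshold when a gene's spread differed between stages by the weights alone and clearly exceeded it when each gene's spread was free to differ between stages. The 3 tested genes not listed at 6-somites were fitted on bud libraries alone. Same-numbered libraries deviated together (correlation of replicate differences 0.203 to 0.575 at bud and 0.258 to 0.548 at 6-somites, 0.345 between WT and Gata6 at bud), so the number pairs them, as seen in the data. Where the block moved a count by over 1.5 times, it stands beside it.

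Whole reads were recovered from RPKM steps for 27203 of 27257 identifiers (99.8%, tolerance 0.01 reads), giving depths of 19.7 to 30.8 M reads (median 28.5). Reads served for depth and limma-voom, which called 28 genes. Read numbers limit the precision of weakly expressed genes, and counting error does not cover differences between pools.

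Symbols matched 19258 identifiers. The symbol table drops some copy letters, so 117 of 490 list symbols were matched without their final letter, a choice made after the data were seen. Of the 490, 353 were tested, 71 were listed but not tested and 66 had no identifier. A few genes are not reported here and stand in no list. Named genes were called genes with a symbol, non-overlapping groups and at least 5 RPKM in 1 of the 4 libraries, called list members, gata5, tmem88a, tmem88b, genes called alike in 3 comparisons, and the 6 highest and 6 lowest differences between the Gata6 libraries. Other genes were named after their values were seen. Gene positions and sequences are not analysed here.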

Additional observations from a re-analysis of the deposited data

Results flagged for a closer look

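In a test of the difference itself, limma called 6 identifiers for a Gata6 morpholino effect that differed between stages, with an adjusted p below 0.05. The log2 change at 6-somites minus that at bud was -1.80 for tal1, -1.73 for en2, -1.61 for ENSDARG00000038260, -1.55 for sox10, -1.53 for lmo2 and -1.52 for ENSDARG00000091986. tal1, en2, sox10 and ENSDARG00000038260 reached 1 RPKM in 2 bud libraries only with the help of the Gata6 libraries. The test uses the values of those libraries too, so the calls of these genes are no result. With no filter, 3 identifiers were called for the difference, of which 2 were among the 6. All 6 identifiers were also called at least 2 log2 units higher at 6-somites than at bud in Gata5 morphants. ENSDARG00000038260 was at 0.57 and 0.65 RPKM in WT and at 1.01 and 1.70 RPKM in Gata6 morphants at bud, and at 13.1 and 11.8 against 5.10 and 5.68 RPKM at 6-somites. ENSDARG00000091986 had nearly the values of lmo2 in every library. In Gata6 morphants at bud, for instance, it was at 4.22 and 5.91 RPKM against 4.27 and 5.98 RPKM. The 2 identifiers may therefore share reads and are not separate evidence. Each is nevertheless counted among the 6 identifiers. Both also enter the counts over genes higher at 6-somites than at bud in Gata5 morphants.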

How the results depend on the processing

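The count of 16 genes called in Gata6 morphants against WT at bud became 240 with libraries weighted equally, 0 on bud libraries alone, 0 on the 4 libraries compared, 10 with at least 5 RPKM, 25 with median-of-ratios scaling, 28 with limma-voom and 1 to 465 with each library left out. Of the 16 genes, none was called in either fit without the 6-somites libraries. All 16 kept their direction under every alternative run, which is no support for them. Weights, filters, the block and fits on fewer groups leave the difference of group means as it is. As the groups do not overlap for these genes, leaving out 1 library cannot reverse it. The replicate block, which pairs libraries by number, gave 28 calls, and it gave 7 in place of 18 for Gata5/6 against Gata5 morphants and 1849 in place of 1047 at 6-somites. For Gata5/6 against Gata5 morphants at bud, equal weights gave 112, bud libraries alone 0, the groups compared alone 0, at least 5 RPKM 9, median-of-ratios scaling 37 and leaving out each library 3 to 18. At 6-somites, equal weights gave 39, the groups compared alone 519, at least 5 RPKM 664 and leaving out each library 246 to 760. For the difference of the Gata6 effect between stages, in place of 6 calls, equal weights gave 3, the groups compared alone 0, at least 5 RPKM 0, no filter 3, limma-voom 2 and leaving out each library 0 to 223. For the difference with and without the Gata5 morpholino, in place of 0, equal weights gave 5, a pseudocount of 0.1 gave 3, median-of-ratios scaling 2, limma-voom 4 and leaving out each library 0 to 18. Fewer samples or fewer genes entered the fits on fewer libraries or with a higher filter, and the cause of the other shifts was not tested. Differences between stages have no fit on 1 stage. With 2 libraries a group at bud, a gene without a call is not shown to be alike in both groups.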
